A study of Homo sapiens with 9 samples.

Results

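The box H/ACA and Cajal body small RNAs are 92 genes of the 26929 listed in the deposited expression table, 72 with a symbol that starts with SNORA and 20 with one that starts with SCARNA. They were chosen by their measured level: a gene was taken when its mean normalised count over the 9 libraries was at least 5. The table lists 158 such symbols, of which 41 had no read in any library and 25 had reads with a mean under 5. The mean was computed over treated and control libraries together. Only 13 of the 92 genes reach a mean of 5 over the DMSO libraries alone, against 88 over the JPX-0700 and 91 over the JPX-0750 libraries. A gene that passed only through the treated libraries had to differ, so the numbers of genes below describe the set and are not evidence about it.

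The cells were MV4-11, an established human acute myeloid leukaemia line. Libraries, 3 in each of 3 groups, were made from cells kept for 24 h with JPX-0700, with JPX-0750 or with the vehicle DMSO, and the series title presents the compounds as degraders of both STAT3 and STAT5. Doses are not in the labels, and nothing there says that replicates were separate cultures, so p-values measure the spread between these libraries, which may be technical. Total RNA went into a 3′ end kit (QuantSeq), which primes on polyadenylated RNA.

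Box H/ACA RNAs fold into hairpins joined by the H box and closed by an ACA near the 3′ end, and they guide the conversion of uridine to pseudouridine in ribosomal RNA. Small Cajal body RNAs (scaRNAs) guide modification of spliceosomal small nuclear RNAs in the Cajal body, and carry H/ACA boxes, C/D boxes or both. Most of these RNAs are cut out of introns of host genes, are bound by dyskerin, NHP2, NOP10 and GAR1 when of the H/ACA kind, and in mature form carry no long poly(A) tail.

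The sequences of 7 H/ACA members show the 2 boxes that define the class; they are reference sequences of GRCh38 read at the GENCODE gene models, 5′ to 3′. Capitals mark the match to ANANNA (the H box) nearest the middle and the last ACA within 8 bases of the 3′ end, sought on the gene's own strand. In SCARNA22 the marked ACA ends the gene model and an unmarked ACA lies directly before it. The rule does not tell which of these is the box. SNORA48 and SNORA61 were among the members with the most reads and SNORA12 had the most of all SNORA genes. SNORA8 had no read in any DMSO library, SNORA26 had the smallest difference with JPX-0750, and SCARNA22 and SCARNA21 are the H/ACA scaRNAs with the most reads.
SNORA48: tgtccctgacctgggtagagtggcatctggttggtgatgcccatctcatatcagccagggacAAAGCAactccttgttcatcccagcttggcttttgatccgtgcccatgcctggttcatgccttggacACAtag
SNORA61: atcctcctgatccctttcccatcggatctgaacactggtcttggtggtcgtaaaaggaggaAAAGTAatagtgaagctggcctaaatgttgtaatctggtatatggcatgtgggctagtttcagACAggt
SNORA12: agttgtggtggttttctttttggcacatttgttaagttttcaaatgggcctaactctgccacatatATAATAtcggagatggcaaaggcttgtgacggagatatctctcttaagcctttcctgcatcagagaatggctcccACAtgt
SNORA8: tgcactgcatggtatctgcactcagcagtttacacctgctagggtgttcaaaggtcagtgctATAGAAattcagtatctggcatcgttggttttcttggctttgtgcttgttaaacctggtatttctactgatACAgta
SNORA26: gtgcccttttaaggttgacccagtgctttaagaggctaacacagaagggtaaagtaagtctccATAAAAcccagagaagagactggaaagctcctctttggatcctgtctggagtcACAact
SCARNA22: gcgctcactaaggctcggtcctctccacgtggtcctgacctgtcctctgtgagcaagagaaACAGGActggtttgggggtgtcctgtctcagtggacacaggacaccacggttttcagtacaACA
SCARNA21: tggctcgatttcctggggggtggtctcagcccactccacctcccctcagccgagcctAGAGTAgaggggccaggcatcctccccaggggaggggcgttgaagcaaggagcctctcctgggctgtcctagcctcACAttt
SNORA48 lies at chr17:7574713-7574847 (plus strand), in an intron of SENP3-EIF4A1, and SNORA61 at chr1:28579764-28579893 (minus strand), overlapping an exon of the noncoding gene SNHG12. SENP3-EIF4A1, assigned to SNORA67 as well, had no read in any library, so both members are absent from the host comparison below. As no source used here gives the handling of overlapping genes, this 0 does not show that the host was silent. SNORA12 lies at chr10:100237156-100237302 (minus strand) in an intron of CWF19L1, and SNORA8 at chr11:93732361-93732499 (minus strand) overlapping an exon model of TAF1D. SNORA26 lies at chr4:52713249-52713370 (plus strand) within DANCR. SCARNA22 lies at chr4:1974636-1974760 (plus strand) in an intron of NSD2, listed in the table as WHSC1, and SCARNA21 at chr17:7906122-7906260 (plus strand) in an intron of CHD3. Of the 71 SNORA members with a GENCODE sequence, 76.1% ended in ACA followed by exactly 3 bases and 98.6% held ANANNA, against 1.15% and 81.2% of 260 C/D box (SNORD) sequences. The 9 H/ACA scaRNA members had the same end in 66.7% of cases and the 8 C/D or mixed ones in none. The C box core TGATGA was found in 2.82% of the SNORA members, in 22.2% of the 9 H/ACA scaRNA members and in 87.5% of the C/D or mixed scaRNA members.

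Reads on these RNAs made up a far larger share of the libraries after either compound. Over every SNORA and SCARNA row of the table, which does not depend on the threshold, the share of reads on genes was 0.576%, 0.682% and 0.609% in the JPX-0700 libraries. It was 0.977%, 0.88% and 0.588% in the JPX-0750 libraries, and 0.0235%, 0.00848% and 0.0374% in the DMSO libraries. The 6 treated libraries all lay above the 3 DMSO libraries, and the 2 compounds' ranges overlapped. Group means were 0.622% ± 0.0542 with JPX-0700, 0.815% ± 0.202 with JPX-0750 and 0.0232% ± 0.0145 with DMSO (SD, n = 3 each). Both kinds of gene contributed, with means of 0.287% ± 0.0739 (SNORA) and 0.335% ± 0.106 (SCARNA) in JPX-0700 libraries. In JPX-0750 libraries the SNORA and SCARNA means were 0.418% ± 0.0173 and 0.397% ± 0.195, and in DMSO libraries 0.00698% ± 0.00278 and 0.0162% ± 0.0124 (SD, n = 3 each). Counted as reads, the class summed to 21613 with JPX-0700 and 28257 with JPX-0750, against 2682 in DMSO libraries that together held 13042274 reads, more than the 3483783 and 3737231 of the treated groups.

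**Figure D1:**
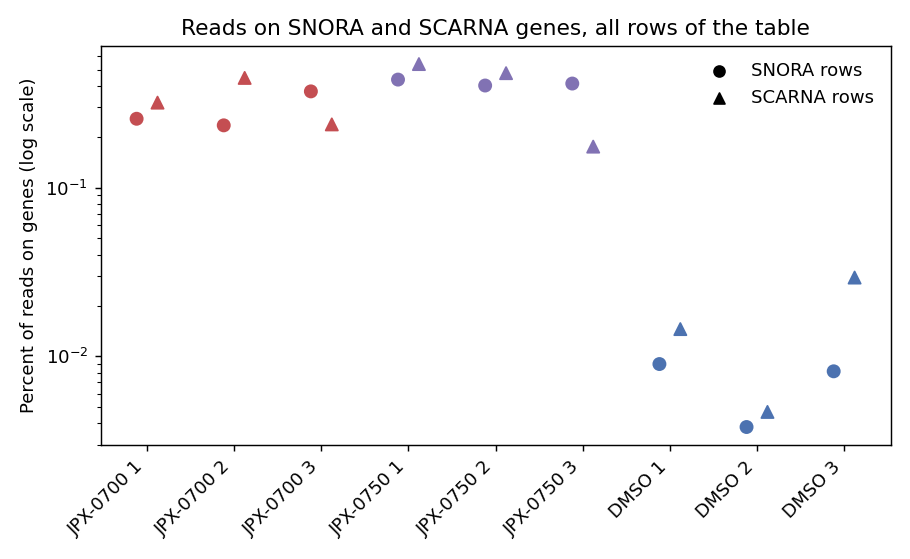
Percent of each library's reads on genes that fell on SNORA rows (circles) and SCARNA rows (triangles), on a log scale, for the 3 JPX-0700, 3 JPX-0750 and 3 DMSO libraries. Every treated library lies above every DMSO library for both kinds of gene.

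Other features of the libraries moved with this difference. Protein-coding genes took 81.6% ± 1.34 of reads in JPX-0700, 78.9% ± 2.13 in JPX-0750 and 98.4% ± 0.222 in DMSO libraries (SD, n = 3 each). MALAT1, a nuclear long noncoding RNA, took 6.03% ± 2.18 of reads in JPX-0700, 6.15% ± 2.72 in JPX-0750 and 0.387% ± 0.191 in DMSO libraries (SD, n = 3 each). Library depth ran from 726043 to 1941860 reads on genes in treated and from 2701317 to 6305586 in DMSO libraries, so the treated libraries were the shallower ones. Replicate 3 of JPX-0700, replicate 3 of JPX-0750 and replicate 1 of DMSO stood apart with 10027, 10407 and 9816 genes detected, where the other 6 had 13068 to 14616. The part of library composition, depth and these libraries in the results was not tested, except where values without them are given. In bulk RNA, more RNA per cell and a different mix of cells cannot be told apart. Of 10 myeloid marker genes 8 were tested, and all 10 summed to normalised counts of 2083 to 5041 with JPX-0700, 1787 to 3888 with JPX-0750 and 5604 to 9436 with DMSO. LYZ carried the gap between JPX-0700 and DMSO: without it the 9 others summed to 788 to 2382 with JPX-0700, 986 to 1264 with JPX-0750 and 1548 to 2316 with DMSO, and the JPX-0700 range overlapped that of DMSO. LYZ (lysozyme) fell with JPX-0750, by 1.93 on the log2 scale (SE 0.49, limma adjusted p = 0.0292), a call that ended without JPX-0750 replicate 1 or 2 or without DMSO replicate 1 or 2 (adjusted p of 0.0865 to 0.214). With JPX-0700 LYZ did not pass as deposited and passed with equal totals, TMM factors or protein-coding totals (-2.28, -1.85 and -2.01, limma adjusted p = 0.00715, 0.0349 and 0.0169). CD14 had no read. Of 6 T and NK cell markers 3 were tested and 0 passed, and their sums were 22.4 to 80.6 with JPX-0700, 6.85 to 68.2 with JPX-0750 and 32.8 to 52.1 with DMSO. Of 5 B cell markers 2 were tested and 0 passed, with sums of 8.34 to 36.9, 5 to 40.9 and 7.67 to 17.1 for JPX-0700, JPX-0750 and DMSO. Of 6 epithelial and fibroblast markers only COL1A1 was tested and it did not pass, with sums of 5.56 to 23 with JPX-0700, 9.1 to 108 with JPX-0750 and 0 with DMSO, and EPCAM, KRT19, CDH1 and DCN at 0 throughout. The part of these differences in the results was not tested.

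Gene by gene, the differences were tested with limma on log2(normalised count + 1) over the 12301 genes with a mean of at least 5, and "rose" and "fell" are used for a two-sided p, adjusted after Benjamini and Hochberg over all genes, under 0.05. With JPX-0700, 39 of the 92 genes rose (42.4%) and 0 fell, where 5.28% of all genes tested rose and 0.496% fell. With JPX-0750, 44 rose (47.8%) and 0 fell, where 3.9% of all genes tested rose and 0.0732% fell. Of the 72 SNORA genes 29 rose with JPX-0700 and 33 with JPX-0750, and of the 20 SCARNA genes 10 and 11. Among the 13 genes whose DMSO mean alone is at least 5, 8 rose with each compound. Every JPX-0700 library exceeded every DMSO library for 44 genes (16.5% of all genes tested) and every JPX-0750 library did so for 60 (19.7% of all genes tested). The median log2 fold change was 3.80 with JPX-0700 and 4.83 with JPX-0750, against 0.14 and 0.26 over all genes tested. All 92 values were above 0 in both comparisons, a direction that the choice of members largely fixes. The comparisons share the DMSO libraries, and 35 genes rose in both (3.37% of all genes tested rose in both).

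Zero counts shape these folds. In the DMSO libraries 21 of the 92 genes had no read and 23 had 1 to 3 reads over the group, so their fitted folds depend on the added count of 1. With the 21 set to the bound that a floor of 3 reads over the DMSO group allows, the median was 4.60 with JPX-0700 over 90 members, where the fitted median of the same members was 3.85; the other 2 had at most 3 reads with JPX-0700 and no fold. With JPX-0750 it was 5.67 over all 92, where the fitted median was 4.83. The bounds came from reads pooled over each group without the added count, while the other members kept their fitted folds. These medians thus mix 2 measures, and the floor is not their only difference from the fitted medians. Leaving out a single library moved the fold by over 1.5 times for 78 of the 92 members with JPX-0700 and 62 with JPX-0750. In the treated libraries 46 genes were at 0 in replicate 3 of JPX-0700 and 25 in replicate 3 of JPX-0750. None of those 46 rose with JPX-0700, and none of those 25 rose with JPX-0750. Without the 3 libraries with the fewest genes, 81 genes rose with JPX-0700 and 80 with JPX-0750, where 17.5% and 17.8% of all genes tested rose.

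**Figure D2:**
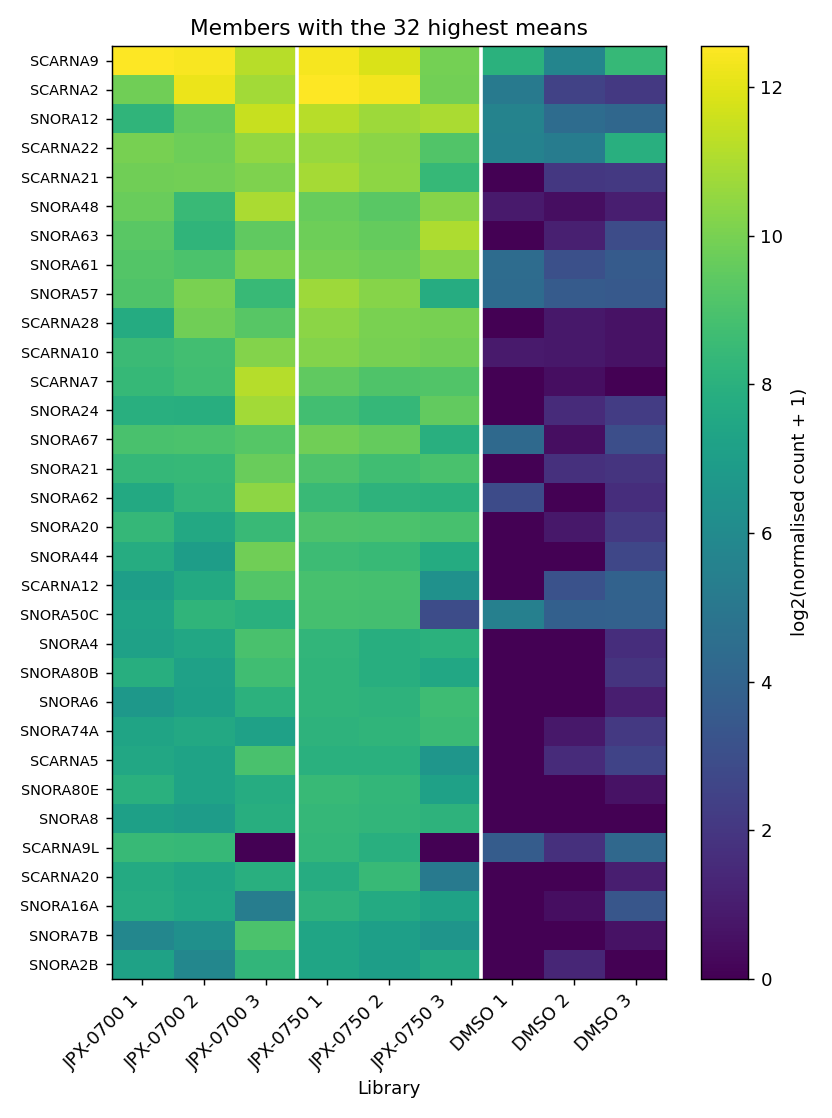
log2(normalised count + 1), by colour, of the members with the 32 highest means (rows, in order of mean) in each library (columns, with white lines between JPX-0700, JPX-0750 and DMSO). The DMSO columns are dark for nearly all rows, and SCARNA9L is at 0 in replicate 3 of both compounds.

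The SNORA genes with the highest mean normalised counts were SNORA12, SNORA48, SNORA63 and SNORA61. SNORA12 had 295, 760 and 2879 normalised counts in JPX-0700 libraries and 2386, 1710 and 1982 in JPX-0750 libraries, against 48.5, 20.7 and 17.2 in DMSO libraries. All treated values exceeded the DMSO values, and the JPX-0700 values were spread widely. It rose with JPX-0700 by a log2 fold change of 5.01 (SE 0.68, limma adjusted p = 8.32e-05), and the fold was 5.78 without JPX-0700 replicate 1 and 4.14 without JPX-0700 replicate 3. With JPX-0750 it rose by 6.22 (SE 0.68, limma adjusted p = 7.37e-06). SNORA48 had 820, 369 and 1987 normalised counts in JPX-0700 and 798, 646 and 1251 in JPX-0750 libraries, against 0.898, 0.383 and 1.08 with DMSO, which are 4 reads in all. The groups did not overlap, and the log2 fold changes were 8.91 with JPX-0700 and 8.94 with JPX-0750 (SE 0.73 each, limma adjusted p = 1.94e-07 and 1.78e-07). Without JPX-0700 replicate 2 or JPX-0700 replicate 3 the JPX-0700 value was 9.50 or 8.29. SNORA63, also called E3, had 641, 298 and 717 in JPX-0700 and 873, 782 and 2096 in JPX-0750 libraries, against 0, 1.15 and 6.46 with DMSO. It rose by 7.68 with JPX-0700 and 8.80 with JPX-0750 (SE 0.79 each, limma adjusted p = 3.92e-06 and 6.46e-07), with 7.01 for JPX-0700 and 8.14 for JPX-0750 when DMSO replicate 1 was left out, and 8.46 and 9.59 when DMSO replicate 3 was. SNORA61 had 585, 511 and 1084 in JPX-0700 and 962, 896 and 1244 in JPX-0750 libraries, against 20.7, 7.29 and 11.3 with DMSO. Its SE was the smallest of the 4, and it rose by 5.72 with JPX-0700 and 6.30 with JPX-0750 (SE 0.57 each, limma adjusted p = 2.7e-06 and 7.54e-07).

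**Figure D3:**
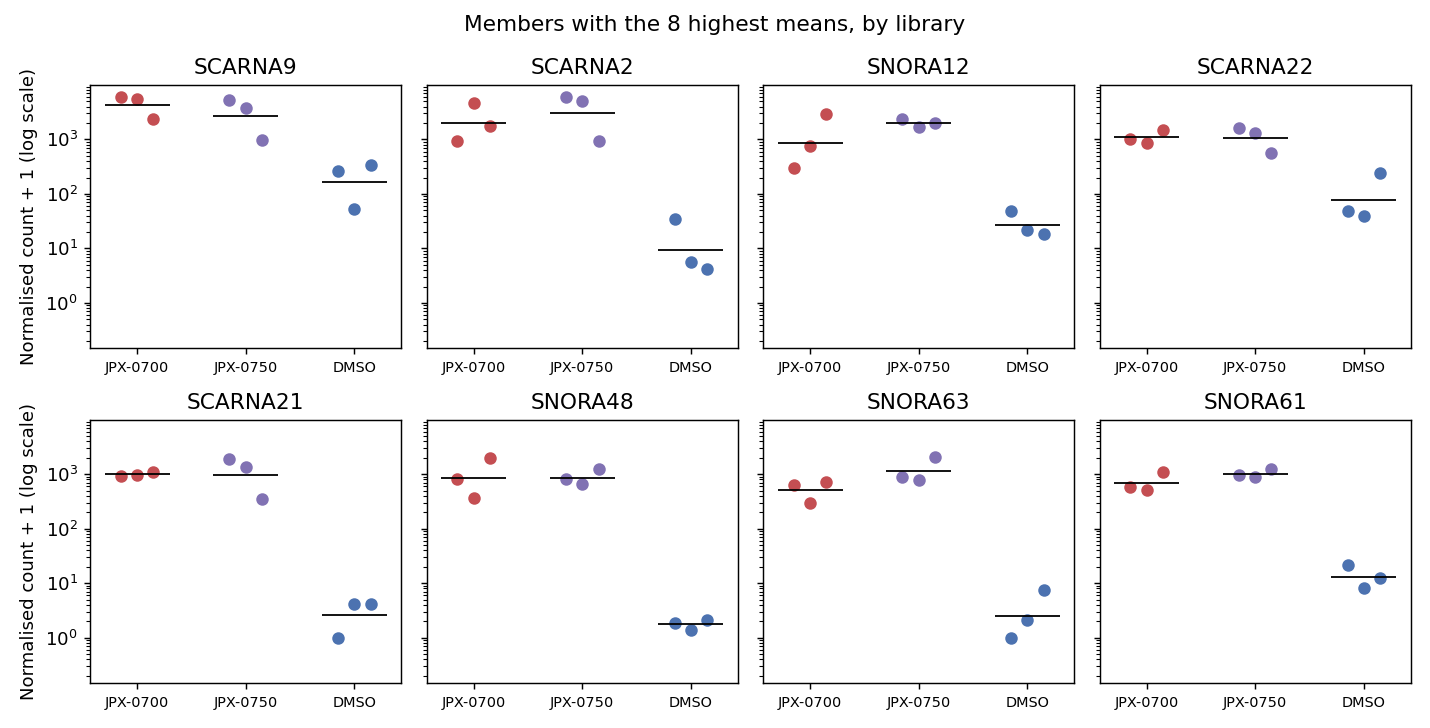
Normalised count + 1 on a log scale for the 8 members with the highest means in each JPX-0700, JPX-0750 and DMSO library (points), with the mean on the log scale as a line. No treated point falls among the DMSO points in any panel.

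Of the 4 scaRNA genes with C/D boxes, 3 rose with each compound, and they include the members with the highest means of all. SCARNA9, which guides methylation of the U2 small nuclear RNA, had 5950, 5501 and 2337 normalised counts in JPX-0700 and 5296, 3729 and 970 in JPX-0750 libraries, against 260, 51.4 and 335 with DMSO. Replicate 3 was the lowest treated library for each compound and still exceeded all DMSO values. SCARNA9 rose by 4.68 with JPX-0700 (SE 0.68, limma adjusted p = 0.0002; 3.84 without DMSO replicate 2). With JPX-0750 it rose by 4.01 (SE 0.68, limma adjusted p = 0.00112), which was 3.18 without DMSO replicate 2 and 4.74 without JPX-0750 replicate 3. SCARNA2, another guide for U2 and a gene outside any host in the table, had 922, 4744 and 1790 in JPX-0700 and 6028, 5102 and 946 in JPX-0750 libraries, against 34.1, 4.6 and 3.23 with DMSO. The treated libraries were spread widely and did not overlap DMSO. It rose by 7.72 with JPX-0700 and 8.35 with JPX-0750 (SE 0.82 each, limma adjusted p = 5.84e-06 and 2.07e-06), which were 8.67 and 9.30 without DMSO replicate 1. The JPX-0700 value was 7.09 without JPX-0700 replicate 2 and the JPX-0750 value 9.20 without JPX-0750 replicate 3. SCARNA7, which guides modification of U1, had 341, 417 and 2293 in JPX-0700 and 729, 541 and 575 in JPX-0750 libraries, against a single read in the 3 DMSO libraries. It rose by 9.27 with JPX-0700 and 9.10 with JPX-0750 (SE 0.83 each, limma adjusted p = 5.96e-07 and 8e-07), with 8.41 for JPX-0700 without JPX-0700 replicate 3. SCARNA17, a guide for U4, had 23, 78.3 and 58.4 in JPX-0700 and 205, 109 and 1.67 in JPX-0750 libraries, against 0, 1.53 and 2.69 with DMSO. It passed the threshold with neither compound (4.52 with JPX-0700 and 4.22 with JPX-0750, SE 1.59 each, limma adjusted p = 0.115 and 0.191), and passed with both when JPX-0750 replicate 3 was left out (limma adjusted p = 0.0339 for JPX-0700 and 0.0176 for JPX-0750). Its JPX-0750 value was 3.02, 3.48 or 6.16 without JPX-0750 replicate 1, 2 or 3.

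Of the 9 H/ACA scaRNA genes, 3 rose with JPX-0700 and 4 with JPX-0750, SCARNA22, SCARNA21 and SCARNA20 with both and SCARNA16 with JPX-0750. SCARNA22 had 1023, 876 and 1478 normalised counts in JPX-0700 and 1595, 1314 and 565 in JPX-0750 libraries, against 46.7, 38.3 and 243 with DMSO. It had the highest DMSO level per length of all 92, at 87.4 normalised counts per 100 bases, and rose by 3.83 with JPX-0700 and 3.78 with JPX-0750 (SE 0.63 each, limma adjusted p = 0.000721 and 0.000939). Without DMSO replicate 3 the values were 4.67 for JPX-0700 and 4.61 for JPX-0750. SCARNA21 had 922, 954 and 1106 in JPX-0700 and 1879, 1364 and 342 in JPX-0750 libraries, against 0, 3.07 and 3.23 with DMSO. It rose by 8.59 with JPX-0700 and 8.54 with JPX-0750 (SE 0.76 each, limma adjusted p = 5.08e-07 and 5.69e-07), which were 7.90 and 7.85 without DMSO replicate 1, and 9.28 for JPX-0750 without JPX-0750 replicate 3. SCARNA20 had 203, 168 and 245 in JPX-0700 and 219, 355 and 35 in JPX-0750 libraries, against 2 reads over the DMSO group. Reads pooled over each group and scaled gave a ratio to DMSO of 584 with JPX-0700 (95% counting interval 159 to 4862) and 409 with JPX-0750 (111 to 3404). Pooling gives deeper libraries more weight. Its mean normalised counts were 205 with JPX-0700, 203 with JPX-0750 and 0.359 with DMSO. It rose by a fitted 7.32 with JPX-0700 and 6.79 with JPX-0750 (SE 1.13 each, limma adjusted p = 0.000347 and 0.000842), and the JPX-0750 value was 6.12 without JPX-0750 replicate 2 and 7.78 without JPX-0750 replicate 3. SCARNA14, SCARNA3, SCARNA4, SCARNA18 and SCARNA11 did not pass in either comparison, with log2 fold changes of 0.93 to 3.51, and all were at 0 in replicate 3 of both compounds. SCARNA18 had a log2 fold change of 0.93 with JPX-0750, and -0.46 without JPX-0750 replicate 1.

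Of the 4 mixed scaRNAs, which carry both kinds of box and guide both modifications, 3 rose with each compound. SCARNA10, a guide for U5, had 378, 429 and 1181 in JPX-0700 and 1205, 1010 and 910 in JPX-0750 libraries, against 0.898, 0.767 and 0.538 with DMSO. It rose by 8.38 with JPX-0700 and 9.23 with JPX-0750 (SE 0.70 each, limma adjusted p = 2.3e-07 and 6.09e-08). SCARNA12 had 129, 194 and 586 in JPX-0700 and 476, 455 and 80 in JPX-0750 libraries, against 0, 8.05 and 14.5 with DMSO. It rose by 5.56 with JPX-0700 and 5.64 with JPX-0750 (SE 1.07 each, limma adjusted p = 0.00313 and 0.00312). Leaving out DMSO replicate 1 gave 4.37 for JPX-0700 and 4.46 for JPX-0750, and leaving out DMSO replicate 3 gave 6.35 and 6.43. The JPX-0700 value was 4.94 without JPX-0700 replicate 3 and the JPX-0750 value 6.49 without JPX-0750 replicate 3. SCARNA5 had 184, 153 and 497 in JPX-0700 and 246, 246 and 96.6 in JPX-0750 libraries, against 0, 1.92 and 4.85 with DMSO. All its treated values exceeded the DMSO values, and SCARNA5 rose by 6.56 with JPX-0700 and 6.14 with JPX-0750 (SE 0.99 each, limma adjusted p = 0.000287 and 0.000637). Without DMSO replicate 1 its values were 5.87 with JPX-0700 and 5.46 with JPX-0750, and leaving out DMSO replicate 3 gave 7.15 and 6.73. SCARNA6, in the same host ATG16L1, had 36.9, 11.2 and 0 in JPX-0700 and 37.7, 72.8 and 8.33 in JPX-0750 libraries, against no read with DMSO, and passed in neither comparison (limma adjusted p = 0.315 with JPX-0700 and 0.106 with JPX-0750), though with JPX-0750 it passed without JPX-0700 replicate 3 (adjusted p = 0.019). The box class of SCARNA28, SCARNA9L and SCARNA27 was not assigned. SCARNA28 had 212, 898 and 631 in JPX-0700 and 1332, 1037 and 1023 in JPX-0750 libraries, against 3 reads over the DMSO group, and rose by 8.47 with JPX-0700 and 9.65 with JPX-0750 (SE 0.75 each, limma adjusted p = 4.65e-07 and 8.54e-08; 9.08 for JPX-0700 without JPX-0700 replicate 1). SCARNA9L, a gene that resembles SCARNA9 and may share reads with it, and SCARNA27 did not pass with either compound and had no read in replicate 3 of either.

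Members that share a host gene did not have the same levels. TAF1D holds 6 members, the largest group. SNORA8 had 138, 123 and 233 normalised counts in JPX-0700 and 325, 305 and 278 in JPX-0750 libraries and no DMSO read. Against a floor of 3 reads over the DMSO group, its pooled and scaled reads gave ratios of 323 with JPX-0700 and 550 with JPX-0750. These ratios leave out the spread between libraries. The 95% intervals of its fitted log2 fold changes were 5.25 to 9.38 with JPX-0700 and 6.18 to 10.31 with JPX-0750. The fitted values themselves were 7.32 with JPX-0700 and 8.24 with JPX-0750 (SE 0.98 each, limma adjusted p = 7.75e-05 and 2.01e-05). SNORA1 rose by 6.14 with JPX-0700 and 7.22 with JPX-0750 (SE 1.13 each, limma adjusted p = 0.00197 and 0.000436). The JPX-0700 value of SNORA1 was 6.82 without JPX-0700 replicate 1 and 5.52 without JPX-0700 replicate 3. SNORA25 rose with JPX-0750 and did not pass with JPX-0700, and SNORA32, SNORA18 and SNORA40 passed with neither (log2 fold changes 1.31 to 3.95). All of the last 4 were at 0 in JPX-0700 replicate 3. TAF1D itself had 1129, 466 and 1467 in JPX-0700 and 1003, 719 and 653 in JPX-0750 libraries, against 282, 302 and 431 with DMSO, and did not pass (1.46 with JPX-0700 and 1.23 with JPX-0750, SE 0.49 each, limma adjusted p = 0.0943 and 0.231), though with JPX-0700 it passed without JPX-0700 replicate 2 (1.95, limma adjusted p = 0.0226). In EIF4A2, SNORA63 and SNORA4 rose with both compounds and SNORA81, with 9.22, 11.2 and 0 with JPX-0700, 20.5, 9.1 and 0 with JPX-0750 and no DMSO read, did not pass. In SNHG12, SNORA61, SNORA44 and SNORA16A all rose with both. The host SNHG12 also rose, with 1028, 1036 and 1792 in JPX-0700 and 2304, 1633 and 1604 in JPX-0750 libraries, against 120, 99.7 and 88.3 with DMSO (log2 fold changes of 3.59 for JPX-0700 and 4.15 for JPX-0750, SE 0.44 each, limma adjusted p = 2.87e-05 and 5.11e-06).

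Across the 82 pairs of a member and a tested host on the same strand, the host medians were near those of all genes tested. The 65 hosts had a median log2 fold change of 0.14 with JPX-0700, where 7 rose and 0 fell, and 0.21 with JPX-0750, where 5 rose and 0 fell. Over all genes tested 5.28% rose and 0.496% fell with JPX-0700, and 3.9% rose and 0.0732% fell with JPX-0750. The share of hosts that rose was thus the larger with each compound, though it rests on few genes. The gap between a member's fold and its host's is largely set by the way members were chosen, since 79 of the 92 have a DMSO mean under 5 and entered through the treated libraries, while hosts were not chosen by level. It is therefore given as a description only. Over all pairs the median gap was 3.45 with JPX-0700 and 4.29 with JPX-0750. Among the 13 members whose DMSO mean alone is at least 5, 10 have a tested host, and for these the gap ran from 0.47 to 7.24 with JPX-0700 (median 2.41) and from 0.28 to 6.35 with JPX-0750 (median 2.61). The hosts that rose with both compounds were SNHG12, SNHG25, METTL12, CHD3 and CEP295, while GTF2A1 and PABPC4 rose with JPX-0700. Where a member overlaps a host exon, reads of the 2 genes may not be told apart, since no source used here gives the counted strand or the handling of overlaps. NSD2, the host of SCARNA22, differed by -0.07 with JPX-0700 and -0.10 with JPX-0750 on the log2 scale (limma adjusted p = 0.954 and 0.95), values near 0 whose sign changed when single libraries were left out. NCAPD2, the host of SCARNA10, had -1.56 with JPX-0700 and -2.18 with JPX-0750 (limma adjusted p = 0.269 and 0.144), values below 0 that did not pass.

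**Figure D4:**
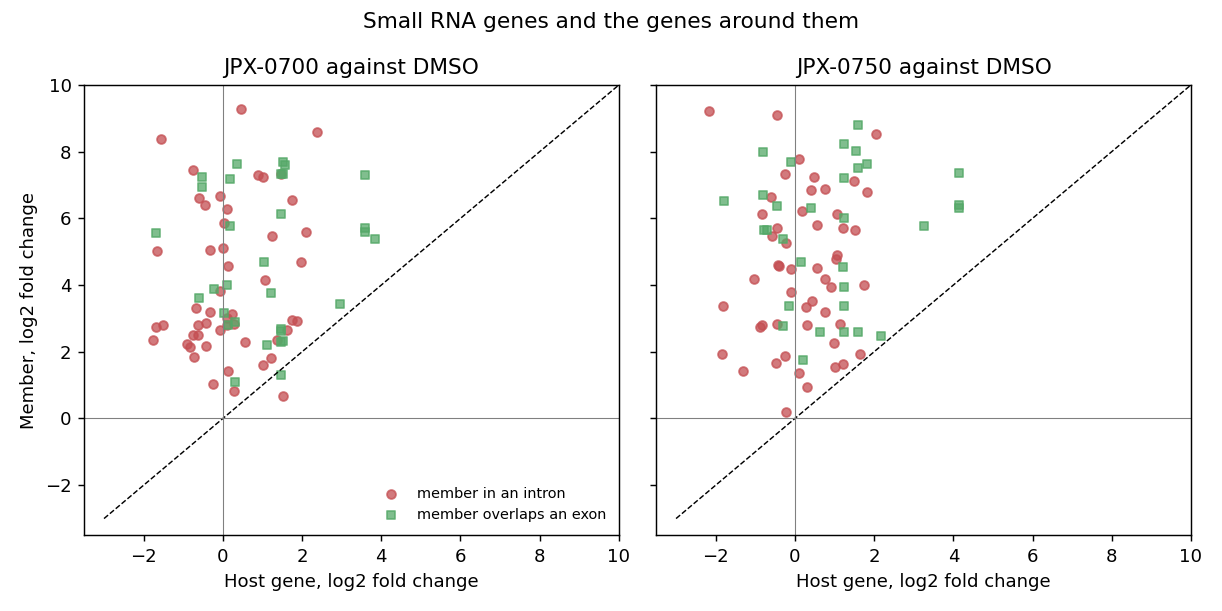
log2 fold change against DMSO of each member (vertical axis) and of the gene that holds it (horizontal axis), with JPX-0700 on the left and JPX-0750 on the right; circles are members in an intron, squares overlap an exon, and the dashed line marks equal values. Most points lie above the line, which the choice of members by level largely fixes; hosts centre on medians of 0.14 with JPX-0700 and 0.21 with JPX-0750.

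The composition of the class also differed. SNORA and SCARNA reads per C/D box (SNORD) read were 0.145, 0.201 and 0.185 in JPX-0700 and 0.242, 0.223 and 0.185 in JPX-0750 libraries, against 0.495, 0.505 and 0.305 with DMSO. All treated ratios lay below all DMSO ratios, with means of 0.177 ± 0.0292, 0.217 ± 0.0292 and 0.435 ± 0.113 (SD, n = 3 each, JPX-0700, JPX-0750 and DMSO). The 151 SNORD genes tested had a median log2 fold change of 5.34 with JPX-0700, where 82 rose (5.28% of all genes tested rose). With JPX-0750 their median was 5.86, where 94 rose (3.9% of all genes tested rose). These 151 of 296 SNORD rows were kept by the same mean over treated and control libraries, so their numbers are a description only. SCARNA reads per SNORA read were 1.25, 1.91 and 0.638 in JPX-0700 and 1.23, 1.18 and 0.422 in JPX-0750 libraries, against 1.62, 1.23 and 3.59 with DMSO, and the groups overlapped. SCARNA9, SCARNA2, SCARNA22 and SNORA12 together held 41.8%, 52.4% and 27.1% of the class reads in JPX-0700 and 42.8%, 40.8% and 23.5% in JPX-0750 libraries, against 68.1%, 56.1% and 73.6% with DMSO. Replicates 1 and 2 of the treated groups had a read on 93 to 105 rows of the class and replicate 3 on 47 with JPX-0700 and 70 with JPX-0750, against 17 to 65 rows in the deeper DMSO libraries. The JPX-0700 and DMSO ranges of this number overlapped.

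**Figure D5:**
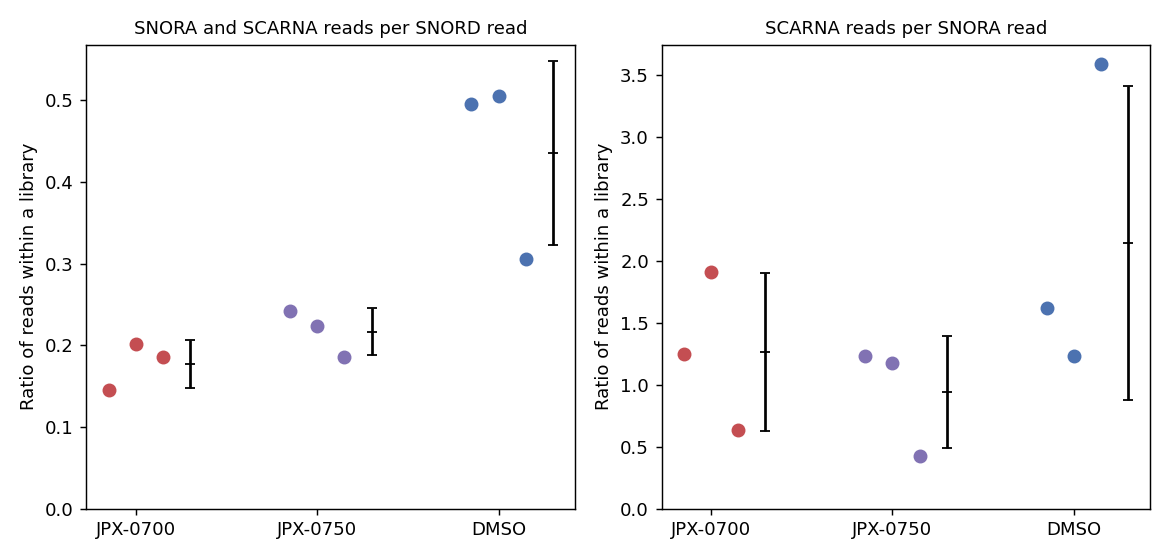
Ratios of reads within each library: SNORA and SCARNA reads per SNORD read (left) and SCARNA reads per SNORA read (right), for JPX-0700, JPX-0750 and DMSO; points are libraries and bars the mean ± SD (n = 3). The left ratio is lower in all 6 treated libraries than in any DMSO library, and the right one overlaps between groups.

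Directly compared, the compounds gave no call. Of the 12301 genes, 0 passed in limma for JPX-0750 against JPX-0700, and 0 passed with voom weights on recovered reads. At an unadjusted p under 0.05 there were 395 genes (3.21% of all genes tested), 4 of them members. SNORA79 had 267, 182 and 238 normalised counts with JPX-0750 and 59.9, 29.8 and 0 with JPX-0700, against 0, 0 and 3.23 with DMSO. SNORA13 had 54.8, 45.5 and 65 with JPX-0750 and 27.7, 0 and 0 with JPX-0700, and no DMSO read. SNORA25 had 161, 159 and 147 with JPX-0750 and 55.3, 63.4 and 0 with JPX-0700, against 0, 1.92 and 3.77 with DMSO. SCARNA16 had 37.7, 36.4 and 98.3 with JPX-0750 and 13.8, 11.2 and 0 with JPX-0700, and no DMSO read. In all 4 the JPX-0750 values lay above the JPX-0700 values, and JPX-0700 replicate 3 was at 0. The log2 differences were 4.20 for SNORA79, 4.18 for SNORA13, 3.35 for SNORA25 and 3.21 for SCARNA16, with a limma adjusted p of 0.848 each. Against DMSO these 4 rose with JPX-0750 and not with JPX-0700, and leaving out any 1 JPX-0750 or DMSO library ended the calls of SNORA13, SNORA25 and SCARNA16, with adjusted p of 0.0585 to 0.166. That of SNORA79 ended without JPX-0750 replicate 1, JPX-0750 replicate 3 or DMSO replicate 2, at 0.0627, 0.053 and 0.0505. Without JPX-0700 replicate 3, SNORA79 and SNORA25 rose with JPX-0700 too (4.74 for SNORA79 and 4.65 for SNORA25, limma adjusted p = 0.0209 and 0.0174). For the genes with most reads the 95% interval of the log2 difference was -2.11 to 0.78 for SCARNA9, -1.10 to 2.36 for SCARNA2, -0.21 to 2.64 for SNORA12 and -0.63 to 1.78 for SNORA61, and each of these intervals includes a 2-fold difference. Doses are not known, and the comparison is between these treatments as given. Every JPX-0750 library exceeded every JPX-0700 library for 13 members (4.72% of all genes tested) and lay below for 1, SNORA26 (3.63% of all genes tested).

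SNORA26, in DANCR, was the member that differed least with JPX-0750. It had 50.7, 18.6 and 61.1 in JPX-0700 and 13.7, 18.2 and 0 in JPX-0750 libraries, against 27.8, 0.383 and 3.77 with DMSO, and the groups overlapped in both comparisons (2.79 with JPX-0700 and 0.19 with JPX-0750, SE 1.59 each, limma adjusted p = 0.346 and 0.973). The JPX-0700 value was 3.95 without DMSO replicate 1 and 1.76 without DMSO replicate 2. Its JPX-0750 direction depended on scaling and libraries, at -0.21 with equal totals, -0.01 with TMM factors, and -0.39, -0.59 and -0.84 without JPX-0750 replicate 1, JPX-0750 replicate 2 or DMSO replicate 2, and at 1.35 and 1.55 without DMSO replicate 1 or JPX-0750 replicate 3. SNORA49 differed least with JPX-0700, with 13.8, 0 and 0 in JPX-0700 libraries against 0, 0 and 2.69 in DMSO libraries (0.67, SE 1.60, limma adjusted p = 0.843; -0.63 without JPX-0700 replicate 1). At the threshold, the members just inside were SNORA30, SNORA47 and SCARNA11 with means of 5.19, 5.15 and 5.01. Just outside were SNORA5A, SNORA94 and SNORA69 with 4.69, 3.04 and 3.

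None of the genes tested for proteins that bind, assemble or mature these RNAs passed the threshold in limma. Over these 5 lists of 46 tested genes, 4 had an unadjusted p under 0.05 with JPX-0700 and 5 with JPX-0750. In voom 2 were called for each compound. Among all 12301 genes tested, limma called 649 higher and 61 lower for JPX-0700. For JPX-0750 the limma calls were 480 higher and 9 lower. The voom calls were 1224 higher and 75 lower for JPX-0700, and for JPX-0750 920 higher and 25 lower. At these rates few calls would fall on any 46 genes, so their absence in limma does not set these lists apart. Of the 4 core H/ACA proteins, 0 passed with either compound, with median log2 fold changes of -1.01 with JPX-0700 and -0.80 with JPX-0750. Their summed normalised counts were 1152 to 2147 with JPX-0700, 1054 to 1323 with JPX-0750 and 1876 to 2398 with DMSO, so that the JPX-0750 sums lay wholly below those of DMSO. DKC1, the pseudouridine synthase dyskerin, had 567, 1640 and 811 normalised counts in JPX-0700 and 661, 855 and 476 in JPX-0750 libraries, against 1553, 893 and 1079 with DMSO. Its groups overlapped with JPX-0700 and lay apart, lower, with JPX-0750, yet it did not pass (-0.33 with JPX-0700 and -0.82 with JPX-0750, SE 0.47 each, limma adjusted p = 0.726 and 0.449), and the JPX-0700 value was 0.01 without JPX-0700 replicate 1. NHP2, NOP10 and GAR1 did not pass either, with log2 fold changes of -0.58, -1.78 and -1.44 for JPX-0700 and -0.77, -1.65 and -0.50 for JPX-0750. NHP2 was lower than every DMSO library with both compounds, and NOP10 with JPX-0700. NOP10 with JPX-0750 and GAR1 with both overlapped DMSO. None of 6 assembly factors, 14 tested Cajal body and SMN complex genes, 10 tested genes of intron debranching and 3′ end maturation or 12 stand-alone pseudouridine synthases passed. Their median log2 fold changes were -0.32, -0.24, 0.33 and -0.47 for JPX-0700 and -1.11, -0.41, 0.32 and -0.54 for JPX-0750. The genes of intron debranching and 3′ end maturation summed to 1963 to 2487 with JPX-0700 and 1676 to 2078 with JPX-0750, wholly above the 918 to 1354 with DMSO. SKIV2L2, described below, had the highest count of this list in every library and carried that gap. Without it the sums of each treated group overlapped those of DMSO, and EXOSC10 of the same list was lower than DMSO in every treated library. The assembly factors, the Cajal body and SMN genes and the stand-alone synthases had sums of 1060 to 4463, 1617 to 2659 and 1025 to 1426 with JPX-0700. Their sums were 1010 to 1401, 1469 to 1599 and 982 to 1125 with JPX-0750, and 1307 to 1739, 1676 to 2312 and 940 to 1076 with DMSO. COIL, the coilin scaffold of the Cajal body, differed by 0.38 with JPX-0700 (-0.35 with equal totals and -0.08 with protein-coding totals) and by -0.40 with JPX-0750. SKIV2L2, the helicase MTR4 that feeds RNA to the nuclear exosome, had 1092, 1636 and 917 normalised counts in JPX-0700 and 1311, 1278 and 598 in JPX-0750 libraries, against 629, 215 and 498 with DMSO. Its JPX-0700 values lay above the DMSO values and its JPX-0750 values overlapped them. It did not pass in limma (1.53 with JPX-0700 and 1.30 with JPX-0750, SE 0.50 each, adjusted p = 0.0866 and 0.208), passed in voom with JPX-0700 (1.58, adjusted p = 0.035), and passed in limma with both without the 3 libraries with the fewest genes (2.03 with JPX-0700 and 1.98 with JPX-0750, adjusted p = 0.0245 and 0.0254). DBR1, the debranching enzyme that opens intron lariats, differed by -1.52 with JPX-0700 and -0.95 with JPX-0750, and SMN1, SMN2 and PARN were listed at 0 in all libraries. The telomerase RNA TERC, which ends in an H/ACA domain and resides in Cajal bodies, had 244, 481 and 486 in JPX-0700 and 654, 505 and 118 in JPX-0750 libraries, against 0, 10.7 and 32.3 with DMSO. All its treated values exceeded the DMSO values, and it rose by 5.72 with JPX-0700 and 5.54 with JPX-0750 (SE 1.05 each, limma adjusted p = 0.00192 and 0.00291). Without DMSO replicate 1 the TERC values were 4.29 with JPX-0700 and 4.11 with JPX-0750. Leaving out DMSO replicate 3 gave 6.82 and 6.64, and leaving out JPX-0750 replicate 3 gave 6.30 for JPX-0750.

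Some members have near copies, and no source used here says how reads that fit several copies were counted. The closest pairs in the table were SNORA7A and SNORA7B, 98.6% identical, SNORA73A and SNORA73B, 93.2%, and SNORA80A and SNORA80B, 91.9%. SNORA73A and SNORA73B are the U17 RNA, which takes part in ribosomal RNA processing. SNORA73B had 96.8, 41 and 286 in JPX-0700 and 130, 136 and 213 in JPX-0750 libraries, against 0, 1.53 and 0 with DMSO. It rose with both compounds (6.28 with JPX-0700 and 6.85 with JPX-0750, SE 1.15 each, limma adjusted p = 0.002 and 0.000981). The JPX-0700 value of SNORA73B was 6.94 without JPX-0700 replicate 2 and 5.55 without JPX-0700 replicate 3. SNORA73A, at 0 in JPX-0700 replicate 3, rose with JPX-0750 (6.30, SE 1.67, limma adjusted p = 0.0406), a call that ended without any 1 JPX-0750 or DMSO library, at adjusted p of 0.077 to 0.197, and it passed with JPX-0700 without JPX-0700 replicate 3 (6.24, limma adjusted p = 0.00478). Values of these pairs are uncertain for that reason.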

How the data were processed

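For 26929 genes in 9 MV4-11 libraries (3 groups of 3) the authors deposited normalised counts. Alignment tools in the submitters' processing notes are STAR 2.4.2a and SAMtools 1.4 with the build GRCh38, beside DESeq2, featureCounts 2.0.3 and FastQC 0.11.9. The strand counted and the treatment of multiply mapping reads are not stated. Within each library 100% of deposited values were whole multiples of the smallest one (tolerance 1e-06), so a value is a read count over a constant of its library, and dividing by the smallest value returned whole reads. One read was worth 0.383 to 4.61 normalised counts. Reads carry no molecular identifier in the labels, so counting intervals (95%) and floors (3 reads) cover counting error only.

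limma 3.58.1 in R 4.3.3 was fitted to log2(normalised count + 1) of the 12301 genes with a mean of at least 5, with 1 mean per group over 9 libraries, trended moderated variances and Benjamini-Hochberg adjustment. The step was tested on simulated counts drawn around the DMSO means with the same dispersion for every gene. That simulation held no libraries with few detected genes, so it does not cover the zeros of such libraries here. A fold change on this scale understates the change of low genes. Positions, hosts and sequences came from GENCODE and RefSeq on GRCh38, matching 88 and 92 members. Box classes of the scaRNAs were assigned from general knowledge of the genes. Members named are those with the most reads, the smallest p in each comparison, all SCARNA members, those at the threshold and those with the lowest fold; other members are given to describe shared hosts and near copies and were chosen after their values were seen. The members and gene lists were chosen with earlier results of these data known. Alternatives were other pseudocounts, filters, scalings, a replicate block, left-out libraries and, added after seeing the data, voom.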

Additional observations from a re-analysis of the deposited data

How the results depend on the processing

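Leaving out 1 library at a time gave 33 to 49 genes that rose with JPX-0700 and 33 to 54 with JPX-0750, and 33 of the 39 and 33 of the 44 calls held without any 1 of the 9 libraries. In these fits 3.13 to 6.85% of all genes tested rose with JPX-0700 and 2.06 to 8.06% with JPX-0750, so the calls changed over all genes and not only among members. Without the 3 libraries with the fewest genes, 81 and 80 rose, where 17.5% and 17.8% of all genes tested did. voom on recovered reads, chosen after seeing the data, gave 52 and 57, with all 39 and 44 among them. It also called more of all genes tested, of which 9.95% rose with JPX-0700 and 7.48% with JPX-0750. The 2 planned count models were not run, because the decimal comma of the file kept its unit from being recorded as counts. The other alternatives gave 36 to 39 with JPX-0700 and 37 to 45 with JPX-0750, the lowest with the filter at a mean of 50 (46 members tested) and with no filter. Of all genes tested in them, 3.03 to 9.36% rose with JPX-0700 and 2.16 to 6.62% with JPX-0750. Every alternative run gave 0 in JPX-0750 against JPX-0700. Left-out libraries gave class shares of 0.592 to 0.645% with JPX-0700, 0.734 to 0.928% with JPX-0750 and 0.016 to 0.0305% with DMSO, and ratios to SNORD reads of 0.165 to 0.193, 0.204 to 0.233 and 0.4 to 0.5. Counting either strand changed the host of 0 members, so it was no test of the host medians.

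Scaling to equal totals moved the median of all genes tested to -0.49 with JPX-0700 and -0.23 with JPX-0750, and all calls to 378 higher and 286 lower, and 304 higher and 57 lower, where the deposited scaling gave 649 and 61, and 480 and 9. TMM factors gave 510 and 123, and 383 and 25, with medians of -0.12 and 0.01. Protein-coding totals gave 426 and 125, and 375 and 18, with medians of -0.24 and 0.06. The member medians were 3.56 to 3.64 with JPX-0700 and 4.73 to 4.83 with JPX-0750 under these scalings. Values printed for single genes that changed sign were SNORA49 with JPX-0700 (-0.63 to 1.32 when 1 library was left out, the lowest without JPX-0700 replicate 1), DKC1 with JPX-0700 (-0.75 to 0.01, the highest without JPX-0700 replicate 1), SCARNA18 with JPX-0750 (-0.46 to 1.63, the lowest without JPX-0750 replicate 1) and SNORA26 with JPX-0750 (-0.21 equal totals, -0.01 TMM, -0.39, -0.59 and -0.84 without JPX-0750 replicate 1, JPX-0750 replicate 2 or DMSO replicate 2, and at most 1.55 without 1 library), COIL with JPX-0700 (-0.35 equal totals, -0.08 protein-coding totals) and NSD2 (-0.31 to 0.19 with JPX-0700 and -0.34 to 0.08 with JPX-0750 when 1 library was left out; with JPX-0700 0.19, 0.11 and 0.00 without JPX-0700 replicate 3, DMSO replicate 1 or DMSO replicate 3, and 0.36 when the 3 libraries of fewest genes were all left out); none of these passed the threshold, and the cause was not tested. Replicate numbers are shared between groups in the labels. Deviations of same-numbered libraries correlated at 0.129 to 0.19 between the compounds and at -0.143 to -0.044 with DMSO. Differently numbered ones reached 0.153 (JPX-0700 replicate 2 with JPX-0750 replicate 1) and 0.188 (JPX-0700 replicate 1 with DMSO replicate 3). With 3 libraries per group, which also differ in genes detected, these values cannot decide whether the numbers mark pairs. A fit with the replicate block gave 37 and 44 members, and 0 in the direct comparison.

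With 1 read worth up to 4.61 normalised counts in treated libraries, a 0 there does not show absence. The treated libraries with most members at 0 were replicate 3 of JPX-0700 and of JPX-0750. These held 1852375 and 1941860 reads on genes, where replicates 1 and 2 of the treated groups held 726043 to 1069328. The part of depth in the zeros was not tested.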
